A study of Mus musculus with 15 samples.

Results

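A set of 8 genes that stood higher in memory than in naive B cells was followed on every array: Crisp1, Hepacam2, Emp1, Osbpl3, Prkcz, Marveld1, Igsf9 and Myadm. They are 8 of 16578 named genes on the array and are measured by 17 of 45037 probe sets. The probe sets were found by gene symbol, by older names (AI987662 for Hepacam2 and AI504298 for Marveld1) or, for a pair of dim Prkcz probe sets, by the sequence record listed for the probe set. The genes were chosen by their intensities on these same arrays, low in naive and higher in memory cells, with no numeric threshold, so their change between the groups is described here and not tested.

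Splenic B cells that bind the hapten NP were sorted, in 2 screens, from mice with a rearranged heavy chain, the mVh186.2 transgene. In the first screen 3 arrays held naive cells (A, B and C) and 4 held memory cells (D, E, F and G) of such mice. In the second screen 4 arrays held naive cells that were AA4.1-negative, so without the marker of immature B cells, from mVh186.2 transgenic Jk KO mice, whose kappa light chain joining segments are deleted. The other 4 arrays of that screen (EK, FG, HJ and I) held memory cells that arose from mVh186.2 Tg donor splenocytes after transfer into AM14/Vk8R transgenic recipients. The labels give no age, no immunisation schedule and no statement of whether the memory arrays with paired letters pool several mice, and they do not list the Jk KO for the donors, so genotype, host and memory state cannot be told apart in the second screen. All groups thus share the transgene, and the study calls the arrays of a group biological replicates. Sorter and labelling kit changed between the screens along with the cells, and cannot be told apart from each other. The labels name no software for the first screen. The scale of the values did differ, with a median intensity per array of 103.4 to 153.7 in the first screen and 24.986 to 26.022 in the second. The part of software in this was not tested. Levels, correlations between arrays and sizes of change set side by side for the screens carry this limit.

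Memory B cells are the long-lived product of an immune response and answer a second encounter with antigen faster than naive cells do. The 8 genes encode proteins of several kinds. Crisp1 is a secreted cysteine-rich protein best known from the epididymis, where it coats sperm. Hepacam2 and Igsf9 are membrane proteins of the immunoglobulin superfamily. Emp1 is a tetraspan membrane protein of the PMP22 and claudin superfamily, and Marveld1 and Myadm span the membrane through MARVEL domains. Prkcz is the atypical protein kinase C zeta, which needs neither calcium nor diacylglycerol, acts with Par polarity proteins, and is known in mice to take part in NF-kB signalling and antibody responses of B cells. Osbpl3 binds lipids at contacts between the endoplasmic reticulum and the plasma membrane.

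The 250 bases upstream of the start of transcription are shown for Crisp1, Hepacam2, Emp1 and Osbpl3, whose brightest probe sets were at least 8-fold higher in memory cells of the second screen (with 1 added to the intensities), so that their composition can be set beside their levels. They are taken from the RefSeq promoter table (GRCm38.p6), at the 5′-most start listed for each gene, at chr17:40319208-40319457 on the minus strand for Crisp1, chr6:3494499-3494748 minus for Hepacam2, chr6:135362681-135362930 plus for Emp1 and chr6:50456171-50456420 minus for Osbpl3. Each is written 5′ to 3′ and capitals mark matches to the motifs searched.
Crisp1: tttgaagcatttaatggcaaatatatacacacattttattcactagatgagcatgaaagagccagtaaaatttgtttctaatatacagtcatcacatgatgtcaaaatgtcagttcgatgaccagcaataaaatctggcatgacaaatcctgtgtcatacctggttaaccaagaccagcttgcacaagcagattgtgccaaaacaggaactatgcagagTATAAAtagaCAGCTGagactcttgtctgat
Hepacam2: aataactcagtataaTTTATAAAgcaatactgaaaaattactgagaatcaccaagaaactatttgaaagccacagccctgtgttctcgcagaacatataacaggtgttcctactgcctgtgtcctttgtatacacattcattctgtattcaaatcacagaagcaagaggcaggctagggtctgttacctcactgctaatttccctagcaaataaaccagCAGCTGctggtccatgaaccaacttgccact
Emp1: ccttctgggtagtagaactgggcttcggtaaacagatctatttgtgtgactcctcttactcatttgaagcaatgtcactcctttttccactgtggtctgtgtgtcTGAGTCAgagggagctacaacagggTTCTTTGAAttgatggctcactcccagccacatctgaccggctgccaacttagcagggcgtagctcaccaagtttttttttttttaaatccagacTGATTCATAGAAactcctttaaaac
Osbpl3: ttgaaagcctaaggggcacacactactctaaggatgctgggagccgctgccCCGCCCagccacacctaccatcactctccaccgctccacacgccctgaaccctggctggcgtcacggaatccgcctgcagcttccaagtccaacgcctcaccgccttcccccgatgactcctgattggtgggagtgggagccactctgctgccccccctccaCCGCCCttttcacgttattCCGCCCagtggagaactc

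A group of short motifs was looked for on both strands. They were the core promoter box TATAAA (in 13.0% of 27025 promoters of the same length), CAGCTG (an E-box of E2A, 12.7%), TGANTCA (AP-1, 6.85%), TTCNNNGAA (STAT, 7.14%), GGGCGG (GC box, 33.0%), a loose NF-kB motif (45.4%), an interferon regulatory motif (3.05%), ATGCAAAT (octamer, 1.62%), TGACGTCA (cyclic AMP response element, 1.60%) and GGGTGTG (KLF, 6.90%). The Crisp1 window held TATAAA from base -31 to -26, close before the start, and CAGCTG from -21 to -16. Hepacam2 held CAGCTG from -31 to -26, and TATAAA far upstream, on both strands in an overlapping stretch from -235 to -228. Emp1 held TGAGTCA from -145 to -139 and TGATTCA from -25 to -19, both read as AP-1, and the STAT letters at -120 to -112 and at -22 to -14, the latter overlapping the second AP-1 match. Osbpl3 held 3 GC boxes and none of the others. GC content was 36.8% for Crisp1, 40.4% for Hepacam2 and 44.4% for Emp1 against a median of 52.0% over all promoters, and 62.8% for Osbpl3. None of the motifs was found in all 4 windows, and a match describes the letters, not a bound factor.

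The cells carried the transcripts of their label. The B cell markers Ms4a1, Cd79a, Cd79b, Cd22 and Ighm were measured, and none was called different between memory and naive cells in either screen, by the limma test of each screen with Benjamini-Hochberg adjustment over all genes. At an unadjusted p under 0.05 stood none of these B cell markers in the first screen, with Ms4a1 and Cd22 in the second. Of 4 memory markers (Ighg1, Cd80, Pdcd1lg2 and Nt5e), 2 were called higher in the first screen, and all 4 in the second. These tests called 131 of 15820 genes in the first screen (0.828%, of which 0.638% higher in memory) and 3886 of 14661 in the second (26.5%, of which 10.5% higher). Arrays of the second screen resembled each other closely (correlation across all probe sets within a group 0.996 to 0.998), while in the first screen naive C (0.884 to 0.888) and memory G (0.880 to 0.885) stood a little apart from the other arrays of their groups (up to 0.932 and 0.928). Each array was one sample of sorted cells, so a larger share of cells with a transcript and more of it per cell cannot be told apart. Below, levels are intensities as deposited, and a change is the memory mean less the naive mean of log2(intensity + 1), with the standard error of that difference.

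Crisp1, the secreted protein, was below the median of all values on every naive array of both screens, and stood far above it on the memory arrays of the second. Its probe set 1416325_at in the second screen read 15.2, 11.2, 13.4 and 16.7 on naive arrays A to D, and 3041, 2649.5, 2428 and 2396 on memory arrays EK, FG, HJ and I. Every memory array was thus far above every naive array, and the probe set moved from the 36.0 to 43.6 percentile of each naive array to the 95.7 to 96.6 percentile of each memory array. The log2 level was 3.91 ± 0.23 in naive and rose to 11.35 ± 0.16 in memory cells (mean ± SD, n = 4 each), a change of 7.45 ± 0.14, which is 175-fold, and 4 of 45037 probe sets changed more. In the first screen the same probe set read 18.7, 58.1 and 57.2 on naive arrays A, B and C and 70.1, 160.0, 119.4 and 98.5 on memory arrays D to G. The groups did not overlap there either, but 1 memory array (E) alone exceeded the median of all values in the screen. That change was 1.41 ± 0.58, or 2.65-fold, and the probe set did not pass the filter on dim probe sets in the first screen. Whether the change differs between the screens was not tested, since sorter, labelling kit and cell source differ with the screen.

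Crisp3, a paralogue of Crisp1 in the same family of cysteine-rich secreted proteins, is measured by a probe set of its own, which did not rise. It read 657 to 1152 in naive and 509 to 696 in memory cells of the second screen. It changed by -0.58 ± 0.18 (adjusted p = 0.043), a call that held in 8 of 17 settings. Among the settings without it were those leaving out naive A (0.11), naive C (0.101), naive D (0.0525), memory EK (0.0616), memory FG (0.107) or memory I (0.102). In the first screen Crisp3 read 773 to 842 in naive and 331 to 893 in memory cells (-0.91 ± 0.33, adjusted p = 0.37, and 0.0275 without memory E).

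Hepacam2, which in mammals is also known as a regulator of mitosis beside its cell adhesion domains, stood high in memory cells of both screens. Its probe set 1435939_s_at in the first screen read 88.7, 121.6 and 98.5 on the naive arrays and 899, 1086, 1285 and 955 on the memory arrays. In the second it read 62.6, 23.6, 44.3 and 23.7 on the naive and 2509.9, 1903, 2150.2 and 1867 on the memory arrays. No memory array overlapped with a naive one in either screen. The change was 3.35 ± 0.17 (10.2-fold) in the first screen against 5.85 ± 0.35 (57.6-fold) in the second screen, where 7 of 45037 probe sets changed more. On memory arrays of the second screen the probe set reached the 94.4 to 95.9 percentile. Naive arrays of that screen spread from the 48.9 to the 60.1 percentile, and 2 of the 4 lay above the median of all values.

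Igsf9, the other immunoglobulin superfamily member, is known in the nervous system for its part in dendrites and synapses. Its brighter probe set, 1420518_a_at, was near 32 on 3 naive arrays of the second screen (31.8, 32.2 and 31.9) and 38.7 on naive D, against 143.7, 123.1, 132.9 and 158.0 on the memory arrays. That is a rise in level of 2.02 ± 0.10, or 4.05-fold, with no overlap. In the first screen the same probe set read 394, 350.2 and 334 in naive and 350.3, 313, 371 and 380.5 in memory cells. The groups overlapped fully and the change was -0.02 ± 0.09, so by this probe set Igsf9 was not higher in memory cells of the first screen, against the label under which the gene was chosen. The dimmer probe set 1441420_at read 84.8, 95.9 and 47.7 in naive and 177.3, 150.1, 95.6 and 144.6 in memory cells of the first screen (0.92 ± 0.36, with memory F inside the naive range), and changed by 0.50 ± 0.13 in the second without overlap.

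**Figure D1:**
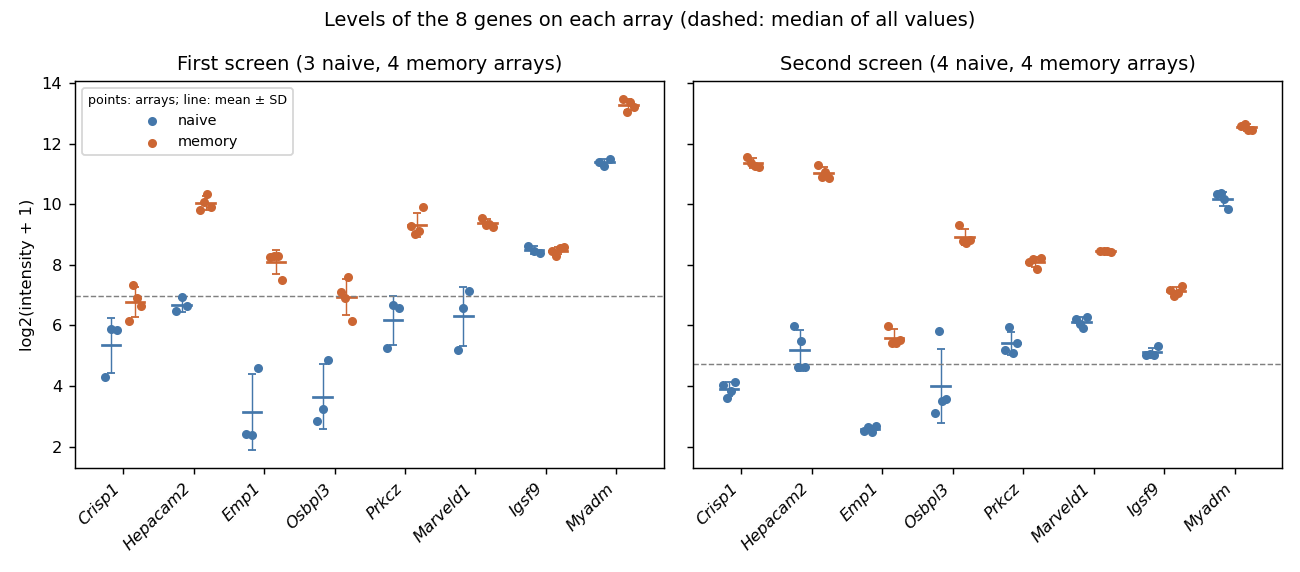
Levels of the 8 genes, as log2(intensity + 1) of the brightest probe set of each gene (vertical axis), on every array of the first (left) and second screen (right). Points are arrays, lines the mean and bars the SD; the dashed line is the median of all values of the screen. Memory arrays lie above all naive arrays for every gene but Igsf9 in the first screen, and Crisp1 memory means are 6.76 in the first screen against 11.35 in the second screen.

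Emp1, a tetraspan protein found in epithelia among other tissues, came closest to silence in naive cells. Its probe set 1416529_at read 4.4, 4.2 and 22.9 on naive arrays A, B and C of the first screen, and 307.5, 313, 315 and 181.3 on memory arrays D, E, F and G. Naive C was the highest naive and memory G the lowest memory array, and the gap between them was still wide. The change was 4.96 ± 0.75 (31.2-fold), or 5.69 without naive C, and 3 of 45037 probe sets changed more. In the second screen naive arrays read 4.7, 5.2, 4.6 and 5.4 and memory arrays 62.8, 41.4, 41.8 and 45.2. The change there was 3.01 ± 0.15 (8.08-fold), from the 5.3 to 9.5 percentile of the naive arrays to the 55.9 to 60.1 percentile of the memory arrays, so Emp1 was raised from near the floor to just above the middle of the array. Because naive signals are so low, the size of the change depends on the constant added before taking logs: with 16 added in place of 1 it was 3.52 in the first screen against 1.59 in the second screen. A further probe set, 1459171_at, which the files tie to Emp1 by a common name alone, did not follow (-0.72 ± 0.90 and -0.04 ± 0.05), and its groups overlapped in both screens.

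Marveld1, a MARVEL domain protein, is measured by 4 probe sets that did not move alike. The brightest, 1439381_x_at, read 35.9, 93.8 and 138.2 on naive and 753, 642, 655 and 608.0 on memory arrays of the first screen, and 72.5, 65.3, 59.1 and 77.4 on naive and 353, 347, 348 and 339.6 on memory arrays of the second. The groups were apart in both, by 3.08 ± 0.57 (8.43-fold) and 2.33 ± 0.09 (5.02-fold). Its suffix marks probes that may also bind other transcripts. Of the other 3 probe sets, 1436830_at changed by 0.75 ± 0.38 and 1.45 ± 0.25, 1433538_at by 0.59 ± 0.38 and 0.62 ± 0.17, and 1436773_x_at by 0.87 ± 0.96 and 0.45 ± 0.12 in the first and second screen. All 4 had every memory array above every naive array in the second screen, and in the first 1433538_at and 1436773_x_at overlapped. The 4 probe sets thus shared a direction and differed in size.

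Myadm, a MARVEL domain protein first described in myeloid cells and known to help organise membrane rafts, differed from the other members in that naive cells already had much of it. On probe set 1439389_s_at naive cells read 2709, 2426 and 2862 and memory cells 11443, 8523, 10577 and 9556 in the first screen. In the second screen naive cells read 1297, 1311, 1156.5 and 922 and memory cells 6102, 6472, 5532 and 5596. Memory cells were thus higher on every array, by 1.91 ± 0.12 (3.75-fold) and 2.35 ± 0.13 (5.09-fold), from at least the 89.5 percentile in naive cells to at least the 98.3 percentile in memory cells. Its other probe set, 1423321_at, moved the same way by 2.20 ± 0.29 and 3.14 ± 0.25.

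Prkcz, the atypical protein kinase C, read 36.8, 101.6 and 94.1 on naive and 628, 513.5, 551 and 949 on memory arrays of the first screen with probe set 1418085_at. In the second it read 35.3, 60.7, 33.1 and 41.6 on naive and 268.9, 290.3, 231.2 and 299.1 on memory arrays. The groups stood apart in both screens, by 3.16 ± 0.50 (8.95-fold) and 2.68 ± 0.21 (6.40-fold). Probe set 1454902_at also separated the groups in the second screen (1.83 ± 0.24), but in the first it read 15.4, 12.4 and 11 on naive arrays and 10.5, 16.4, 121.7 and 54.0 on memory D to G, so that memory D lay below all naive arrays. The remaining pair of probe sets, tied to Prkcz by an old sequence record, changed by 0.02 ± 0.01 and 0.08 ± 0.04 in the second screen and stayed below the median of all values on every array of it. In the first screen they changed by 1.90 ± 1.05, with every memory array above every naive array, and by 0.49 ± 0.41 with overlap, and neither passed the filter.

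Osbpl3, the lipid-binding protein, followed with low naive and clear memory signal. Probe set 1428484_at read 6.2, 8.5 and 28.1 on naive and 135.8, 118.0, 191.3 and 69.8 on memory arrays of the first screen. In the second screen it read 7.6, 54.8, 10.4 and 11 on naive and 630.1, 437, 423 and 452 on memory arrays. Naive C of the first and naive B of the second screen were the highest naive arrays, and neither reached the lowest memory array. The change was 3.28 ± 0.68 (9.70-fold) in the first screen against 4.91 ± 0.62 (29.98-fold) in the second screen, and 5.51 in the second without naive B. Without naive C the change in the first was 3.88. With 16 added in place of 1 the values were 2.26 and 3.91. Only 2 memory arrays of the first screen exceeded the median of all values, so the probe set did not pass the filter there. Its other probe set, 1438724_at, never read above 8.7 on any array and did not separate the groups (-0.20 ± 0.19 and 0.17 ± 0.13).

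**Figure D2:**
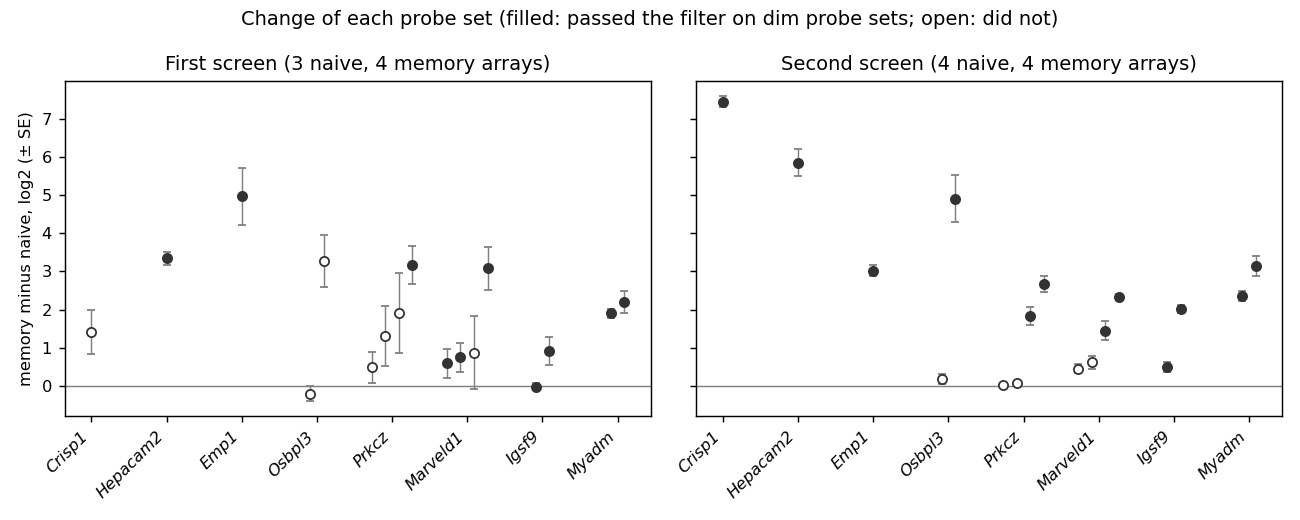
Change of each of the 17 probe sets of the 8 genes, memory minus naive on the log2 scale (vertical axis, bars ± SE), in the first (left) and second screen (right); filled points passed the filter on dim probe sets and open points did not. Probe sets of Osbpl3, Prkcz, Marveld1 and Igsf9 spread more widely than the 2 of Myadm. Those of Myadm changed by 1.91 and 2.20 in the first screen, and by 2.35 and 3.14 in the second.

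Over all members, the memory arrays lay above every naive array for 10 of 17 probe sets in the first screen, where 5.91% of all 45037 probe sets did so, and for 14 of 17 in the second, where 7.67% did. By the brightest probe set of each gene this was so for 7 of 8 genes and 8 of 8. At least 2-fold higher mean levels were seen for 7 of 8 genes in the first screen, and for all 8 in the second, beside 9.74% and 1.16% of all probe sets. At least 16-fold higher were Emp1 in the first screen, beside 0.0244% of all probe sets, and Crisp1, Hepacam2 and Osbpl3 in the second, beside 0.0644%. With 16 added in place of 1, Emp1 in the first screen (3.52) and Osbpl3 in the second (3.91) fell below a 16-fold change, which is 4 on the log2 scale. Since the genes were picked for this difference, the counts describe the choice. The median change of the 8 genes was 3.12 in the first screen, with 2.85 in the second, against 0.07 and 0.03 over all probe sets. Of the 8 genes 6 passed the filter on dim probe sets in the first screen, all but Crisp1 and Osbpl3, and all 8 did in the second. Every naive array lay below the median of all values for 5 of 8 genes in the first screen, and for 2 of 8 in the second (Crisp1 and Emp1). All naive arrays lay above that median for Myadm in both screens, for Igsf9 in both, and for Prkcz and Marveld1 in the second screen (at the 53.3 to 59.8 and 59.1 to 62.3 percentile), so that by this measure "near-silent or low" did not describe them there.

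The members fell into different courses across the 2 screens. By the brightest probe set of each gene, Crisp1, Hepacam2, Osbpl3, Igsf9 and Myadm had the larger log2 change in the second screen. Emp1, Prkcz and Marveld1 had it in the first. Prkcz 1454902_at (1.30, then 1.83) and Marveld1 1436830_at (0.75, then 1.45) and 1433538_at (0.59, then 0.62) went the other way. The remaining probe sets of Prkcz (1419987_at and 1449692_at) and Marveld1 (1436773_x_at) kept the order of the brightest. Igsf9 1441420_at changed more in the first screen (0.92, then 0.50). No test of these differences was made, since each screen was processed on its own. When levels were expressed relative to the naive mean of each screen, Prkcz and Marveld1 had the most similar course of all pairs of members, with a root mean square difference of 0.37 log2 units over the 15 arrays. Crisp1 and Emp1 had the least similar one (2.98).

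**Figure D3:**
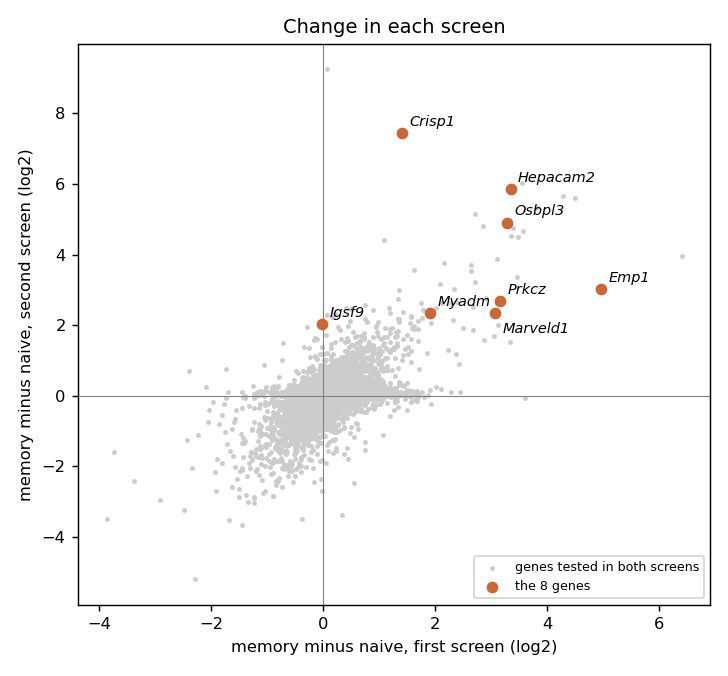
Memory minus naive on the log2 scale in the first (horizontal axis) and second screen (vertical axis) for the 8 genes (orange) and for the genes tested in both screens (grey). Crisp1 (1.41 and 7.45) and Igsf9 (-0.02 and 2.02) lie along the vertical axis, Emp1 (4.96 and 3.01) lies farthest to the right of the 8, and the other 5 lie between.

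By the same measure the other genes with the nearest course were found among 9779 genes tested in both screens, for the 6 members tested in both. For Hepacam2 they were Prkar2b, a regulatory subunit of protein kinase A (0.59), the calcium-binding protein S100a4 (0.63) and the LIM protein Pdlim1 (0.77), against a median of 3.52 over all genes. Prkar2b read 123 to 132 on naive and 729 to 1058 on memory arrays of the first screen, and 127 to 234 on naive and 4964 to 6384 on memory arrays of the second, so that it too rose more in the second. For Prkcz they were the annexin Anxa2 (0.56), 2310047C17Rik (0.58) and Neurod4, a transcription factor of neurons (0.59). For Marveld1 they were Eid2 (0.51), 2310047C17Rik (0.61) and the kinase Mapk12 (0.64). Myadm was most like Aff3, a nuclear protein of lymphoid cells (0.21), MGC68300 (0.27) and the epithelial adhesion molecule Epcam (0.31). Igsf9, flat in the first and higher in the second screen, was most like Anp32a (0.25), the TNF receptor relative Relt (0.31) and the neural adhesion molecule L1cam (0.31). Emp1 had no close neighbour by this measure, the nearest being Lifr, a cytokine receptor chain (1.197), Pdlim1 (1.22) and S100a6 (1.22). Its naive arrays of the first screen, near the floor and spread widely (SD 1.25), enter this distance, and their part in it was not tested. All arrays enter these values with the naive and memory groups, so a like course mostly means a like difference between the groups.

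Relatives of the 8 genes were tested in each screen. The lists of relatives were chosen with earlier results of these data known, so the shares called among them are not independent of these arrays. Of 15 tested immunoglobulin superfamily adhesion proteins 6 were called higher and none lower in the second screen, beside 10.5% higher among all genes. Slamf9, a receptor of the SLAM family, read 58.5 to 135 in naive and 846 to 1227 in memory cells and rose 11.9-fold (3.57 ± 0.24, adjusted p = 1.04e-05), with no overlap. Cd244a, another SLAM family receptor, rose by 1.83 ± 0.13 (adjusted p = 1.31e-05), Cd2 by 1.25 ± 0.06 and Cd48, the ligand of both, by 0.73 ± 0.05. The first screen called 1 of 17 higher and 1 lower, beside 0.638% and 0.190% of all genes. Slamf9 was the one higher (639 to 716 in naive and 1739 to 2430 in memory cells, 3.08-fold, adjusted p = 0.00153), a call kept in all 18 settings. Slamf1 was the one lower (-0.92 ± 0.16, adjusted p = 0.0388). That call held in 8 of 18 settings, and ended without naive A (0.12), B (0.216) or C (0.0639) and without memory D (0.132), E (0.0948) or F (0.0994). The median change of the list was 0.17 in the first screen, with 0.06 in the second, against 0.02 and -0.03 over all genes tested.

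Among relatives of protein kinase C, the conventional isoform Prkca rose by 1.08 ± 0.09 in the second screen (adjusted p = 3.75e-05). Prkce rose by 0.46 ± 0.14 (adjusted p = 0.0428), a call lost in 6 of 17 settings, among them those without naive A (0.0626), B (0.105) or C (0.105) and without memory EK (0.0855) or FG (0.0804). Prkcq, the isoform theta of T cells, fell by 0.55 (adjusted p = 0.0233), a call lost in 5 of 17 settings. Among them were a fit of all 15 arrays (0.521) and those without naive B (0.0596) or C (0.0634) and without memory EK (0.0681). The T cell markers Cd3d, Cd3g and Lck were also lower in memory cells of that screen, and their part in the Prkcq value was not tested. None of 10 relatives was called in the first screen, where 1 had an unadjusted p under 0.05. Prkci, the closest relative of Prkcz, changed by 0.32 ± 0.14 there (adjusted p = 0.492) and Prkca by 0.46 ± 0.22 (adjusted p = 0.542).

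Most partners of atypical protein kinase C in cell polarity were not called, which does not show that they were unchanged. At an unadjusted p under 0.05 stood 5 of 16 in the second screen, 1 of them higher in memory cells. Of 16 tested genes 1 rose and 1 fell in the second screen, beside 10.5% of all genes higher and 16% lower, namely the small GTPase Cdc42 (0.19 ± 0.04, adjusted p = 0.00774, and 0.109 with the mean of its probe sets) and the scaffold Patj (-0.58 ± 0.11, adjusted p = 0.00364, and 0.0641 in a fit of all 15 arrays). None of 15 was called in the first, where 1 had an unadjusted p under 0.05. Pard3 (-0.42, adjusted p = 0.882) and Sqstm1 (0.49, adjusted p = 0.677, and 0.0484 with a block for naive C and memory G) had the largest changes there.

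Of the PMP22 and claudin relatives of Emp1, 1 of 4 tested genes rose and 1 fell in the second screen, beside 10.5% of all genes higher and 16% lower. Emp3 read 373 to 495 in naive and 1531 to 2041 in memory cells, a 4.26-fold rise (2.09 ± 0.12, adjusted p = 3.09e-06). Nkg7, a protein of cytotoxic lymphocyte granules that belongs to the same superfamily, fell by 1.33 (adjusted p = 0.000988). NK cell markers were lower in memory cells of that screen too (2 of 2 tested called lower, summed intensity 90.0 to 174 against 428 to 696 in naive cells), and their part in the Nkg7 value was not tested. None of 6 was called in the first screen, where 1 had an unadjusted p under 0.05. Emp3 stood at 868 to 1448 in naive and 1850 to 3996 in memory cells (1.36 ± 0.27, adjusted p = 0.0629). Emp3 was called there in 4 of 18 settings. These were without memory E (0.0355), with a block for naive C and memory G (0.00956) or both left out (0.0266), and a fit of all 15 arrays (0.00216). In the others its adjusted p reached 0.253, without naive B. Cldn3 changed by 1.31 (adjusted p = 0.615), and by 0.47 without naive A.

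MARVEL domain relatives of Marveld1 and Myadm gave 1 rise and 1 fall among 13 tested genes in the second screen, beside 10.5% of all genes higher and 16% lower. Plp2, a protein of the endoplasmic reticulum and plasma membrane, rose by 1.11 ± 0.05 (2.16-fold, adjusted p = 1.44e-06). With the mean of its probe sets Plp2 rose by 0.55 (adjusted p = 0.00116). Marveld2, the tricellular junction protein tricellulin, fell by 0.37 (adjusted p = 0.0131, and 0.0752 in a fit of all 15 arrays). None of 15 was called in the first screen, where 4 had an unadjusted p under 0.05 and Pllp (1.71, adjusted p = 0.239, and 0.00039 in a fit of all 15 arrays) and Cmtm8 (-1.16, adjusted p = 0.747, and -0.40 without memory F) had the largest changes over all arrays.

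Among oxysterol-binding relatives of Osbpl3, none of 11 tested genes was called higher in the second screen, beside 10.5% of all genes. Called lower were 2, beside 16% of all genes, namely Osbpl8 (-0.47 ± 0.08, adjusted p = 0.00178) and the membrane anchor Vapb (-0.41 ± 0.07, adjusted p = 0.00287, and 0.173 with the mean of its probe sets). None of 12 was called in the first screen, where 1 had an unadjusted p under 0.05. Osbpl10 changed by -0.40 (adjusted p = 0.896) and Vapb by 0.45 (adjusted p = 0.398). Vapb was called in 2 of 18 settings, when naive C and memory G were left out (0.0387) and in a fit of all 15 arrays (0.0443). With the mean of its probe sets Vapb changed by 0.03 (adjusted p = 0.988). Of the CAP domain relatives of Crisp1, Glipr2 rose by 1.43 ± 0.18 in the second screen (2.70-fold, adjusted p = 0.000375), and with Crisp3, lower, it made up the 2 calls among 4 tested genes, beside 26.5% of all genes called. None of 3 was called in the first, where all 3 had an unadjusted p under 0.05 and Glipr2 changed by 0.53 (adjusted p = 0.429).

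**Figure D4:**
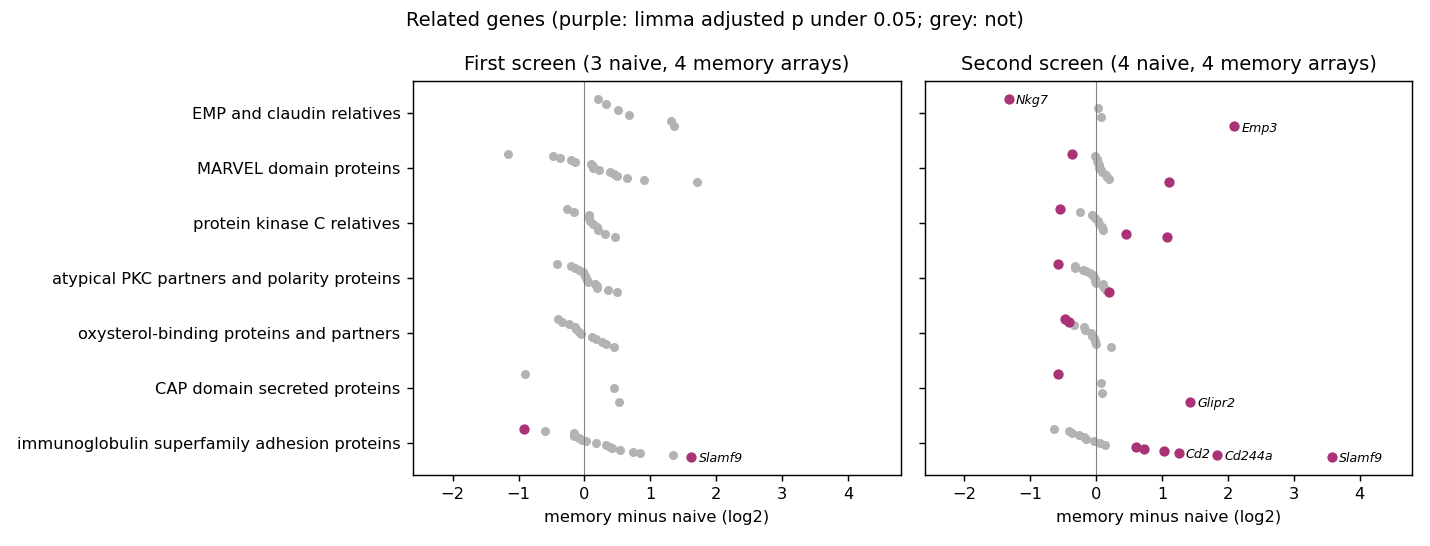
Memory minus naive on the log2 scale (horizontal axis) for reported relatives of the 8 genes that passed the filter, by family (vertical axis), in the first (left) and second screen (right). Purple points were called by limma at an adjusted p under 0.05 and grey points were not; Slamf9 (3.57) and Emp3 (2.09) are the largest rises shown on the right, and Slamf9 (1.62) is the rise called on the left.

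Markers of other cells were measured in the same arrays. Of 6 macrophage and monocyte markers 4 were tested in the first screen and none was called (2 at an unadjusted p under 0.05, both higher in memory), with a summed intensity of 1653 to 2930 in naive and 3453 to 4895 in memory cells. The sum in the second screen was 653 to 2586 in naive and 1099 to 1447 in memory cells, so naive arrays spanned the memory range, and Cd68 was called higher (0.89), while Itgam and Cd14 lay below the median of all values on every array. Neutrophil markers summed to 246 to 486 in naive and 892 to 6535 in memory cells of the first, and to 913 to 6414 and 3093 to 7223 in the second screen, with none of 3 tested called in either. At an unadjusted p under 0.05, 2 of these neutrophil markers were higher in memory cells of the first screen and all 3 in the second. Erythroid markers summed to 1802 to 5101 and 6662 to 29343 in the first, and to 2023 to 5331 and 1712 to 4720 in the second screen, with none of the tested ones called (2 of 2, then 1 of 3, at an unadjusted p under 0.05). Of 5 markers of antibody-secreting cells, Jchain was called higher in both screens (3.46 and 3.36) and Prdm1, Xbp1, Sdc1 and Irf4 in neither. Of 5 epithelial markers Epcam was called higher in both (1.92 and 2.07), Krt8 was called lower in the second (-0.39), and Cdh1 and Krt19 lay below the median of all values on every array of both screens. Germinal center markers summed to 4726 to 7253 in naive and 2380 to 3963 in memory cells of the first screen, with none of 4 tested called (2 at an unadjusted p under 0.05), and to 3859 to 10445 and 1535 to 2004 in the second. There Bcl6 (-1.73, adjusted p = 0.000146) and Mki67 (-2.08, adjusted p = 0.00528) were lower. T cell markers summed to 1075 to 1575 in naive and 921 to 997 in memory cells of the first screen, where Lck was lower (-0.95, adjusted p = 0.0325), and to 682 to 1042 and 283 to 387 in the second. The part of these transcripts in the levels of Emp1, Myadm and the other members was not tested.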

How the data were processed

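Sorted mouse splenic B cells were measured on 15 arrays. The authors deposited a linear intensity per array for 45101 probe sets, and 64 control sets among these were dropped. GCRMA made the values of the second screen, per the submitters' processing notes, while for the other screen no software is named in the labels. The authors' deposited tables also hold pooled columns (sums of arrays in the first, means in the second screen), a ratio and a p-value, none of which was used; gene names were taken from these tables. Symbols were brought to current names with RefSeq (GRCm38.p6), and 1365 probe sets kept the name of the file.

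Here log2(intensity + 1) was computed. The filter kept a probe set that exceeded the median of all values (log2 6.98 and 4.73) on 3 arrays or more of the first screen, or 4 of the second. The brightest probe set stood for each gene. The groups of each screen were compared with limma 3.58.1 (lmFit, eBayes with trend) in R 4.3.3, adjusted by Benjamini-Hochberg with a threshold of 0.05, and tested on simulated data. The number of arrays limits precision, and the study calls the arrays biological replicates without saying which hold single mice. The p-values thus set the difference between the groups against the spread between these arrays. Alternatives were another filter, normalization, pseudocount, probe set summary or fit, and leaving out arrays. From each family list and screen up to 4 called genes with the smallest adjusted p are named, or the 2 largest changes where none was called, and for each member tested in both screens the 3 genes nearest in course, immunoglobulin genes aside. The motifs were chosen with the levels known. The members and lists were chosen with earlier results of these data known. Figures were drawn with Matplotlib 3.10.9 in Python 3.11.15. Results of some genes on these lists are not reported here.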

Additional observations from a re-analysis of the deposited data

Results flagged for a closer look

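In 3 of 24 groups of 4 arrays, 1 array stood so far from the other 3 that its gap to the nearest, as a share of the group's range, exceeded Dixon's critical value, which chance passes in about 1 in 20 groups. Emp1 read a log2 level of 7.51 on memory G of the first screen against 8.27 to 8.31 on the other memory arrays. Osbpl3 read 9.30 on memory EK of the second screen against 8.73 to 8.82. Igsf9 read 5.31 on naive D of the second screen against 5.04 to 5.06. None of these arrays crossed into the range of the other group.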

How the results depend on the processing

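The count of called genes in the first screen (131) depended on the processing. It was 65 after median centring, 706 when a block held naive C and memory G, 843 without both and 1028 in a fit of all 15 arrays, and ran from 63 to 153 when 1 array was left out (76 without naive A, 63 without naive B, 72 without memory D, 83 without memory E and 67 without memory F). In the second screen (3886) it was 1807 in the fit of all 15 arrays, and 2985 to 4214 with 1 array left out. The other settings (no or a stricter filter, quantile normalization, a pseudocount of 16, the mean of probe sets, no trend) stayed within 1.5 times in both screens. Median centring moved the change of all probe sets in the first screen by -0.19, so Igsf9 stood there at -0.22 and Myadm at 1.71.

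The changes of the members kept their direction when any 1 array was left out, except Igsf9 in the first screen (-0.07 to 0.04), and the range was widest for Emp1 in the first screen (4.59 to 5.69). Crisp1 in the second screen was 6.45 with a pseudocount of 16. Another probe set reversed the direction for Emp1 (1459171_at, -0.72, and -0.0432 for the second screen) and Osbpl3 (1438724_at, -0.20 in the first screen), each of them dim. The cause of these differences was not tested. No paired analysis was possible because the arrays compared within a screen carry different letters. Signals below the median of all values, such as those of Emp1 in naive cells, limit what a fold change can show.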
